A study of Mus musculus with 8 samples.

Results

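Expression of 10 keratin genes was compared between sorted basal-type and luminal-type cells of the mouse mammary gland, with and without the transcription factor C/EBPb. The genes were Krt5, Krt14, Krt15, Krt17, Krt23, Krt6a, Krt7, Krt19, Krt8 and Krt18, chosen by name as keratins of basal or luminal epithelium, out of 18194 genes with a probe set of their own on the array. They had 17 of the 45101 probe sets, and the brightest probe set of a gene, by its mean over all arrays, stood for it. Values are on the log2 scale, so that 1 unit is a doubling, and the others of a gene's probe sets served to check it. All 10 genes passed the filter on dim probe sets and lay above the background of all 8 arrays, so that none dropped out of a test.

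There were 4 groups of 2 arrays. Wildtype (WT) glands gave LIN-CD24+CD29hi cells, here CD29hi, and LIN-CD24hiCD29lo cells, here CD29lo. Glands of mice with a germline knockout of C/EBPb (KO), and so lacking the factor in every tissue and not in the epithelium alone, gave the same 2 populations. The labels speak of 2 paired sets of glands and of 10 mice per group, and they call the arrays biological replicates. The sources used here do not give strain, age, sort purity, the deleted stretch of Cebpb or which mice went into which array. Where arrays of 1 group came from overlapping pools of mice, the p-values measure only the spread between these arrays.

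Keratins are the intermediate filament proteins of epithelia. A filament needs a type I and a type II keratin, which pair as a heterodimer: Krt5 (type II) with Krt14 (type I) in basal and myoepithelial cells, and Krt8 (type II) with Krt18 (type I) in simple and luminal epithelium. Krt15, Krt17, Krt19 and Krt23 are further type I keratins, and Krt6a and Krt7 are type II. Desmosomes tie these filaments to neighbouring cells and hemidesmosomes tie them to the basement membrane. C/EBPb is a basic leucine zipper transcription factor that the mammary gland needs for ductal and alveolar development.

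Cebpb was measured first as a check of the labels. It read 11.83 to 12.25 on the 4 WT arrays and 8.6 to 9.38 on the 4 KO arrays, with no overlap, which sets the 2 labels apart. The KO values still lay above the background of 3.84 to 4.41. Whether the probe set lies within the deleted stretch is not known, so these values do not show how much intact transcript was left. The gates carried the markers of their names. The summed signal of 10 basal and myoepithelial markers that are not keratins was 14.8 to 15.37 in CD29hi and 10.7 to 10.99 in CD29lo, on the log2 scale, and that of 10 luminal markers was 11.23 to 11.79 against 13.54 to 13.99. The smooth muscle actin gene Acta2 was higher in CD29hi by 4.58 in WT and 5.03 in KO, and the luminal transcription factor gene Foxa1 was lower (log2 fold changes -5.37 and -4.83). The epithelial genes Epcam and Cdh1 averaged 11.82 to 12.58 on all arrays. Fibroblast markers were also present, and unevenly so: the mean of 10 such genes was 4.98 to 6.96 in CD29hi, 9.89 and 11.59 on the CD29lo arrays of WT, and 7.89 and 10.91 on those of KO. All 10 lay higher in CD29lo in both genotypes, and 8 were called in WT and 4 in KO, of which 2 and 0 kept their call whichever array was left out. With both CD29lo arrays numbered 2 left out, where those means were highest, the keratin calls between the gates given below stayed as they were except that of Krt23 in KO. The CD29lo arrays then kept, at 9.89 and 7.89, still lay above all CD29hi arrays in fibroblast mean. That setting therefore cannot show the part of fibroblasts in the gate differences. Over all genes tested, 8.19% were called between the gates in WT and 14.1% in KO. Of the basal markers 9 in WT and 8 in KO were called higher in CD29hi, and of the luminal markers 7 and 10 were called lower. Of these calls 8 and 8 basal and 5 and 7 luminal ones held whichever array was left out. None of these basal, luminal or fibroblast markers was listed at 0 on any array.

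Promoter sequences are shown for the members on which the comparisons below turn: Krt5, which differed most between the gates, and Krt7 and Krt23, which had the most negative KO minus WT differences in CD29hi. RefSeq's GRCm38.p6 table held a window for 6 of the 10 genes. The runs below are the 250 bases before the gene's start, 5′ to 3′ on the gene's own strand. They lie at chr15:101712906-101713155 (minus strand) for Krt5, chr15:101412153-101412402 (plus strand) for Krt7 and chr11:99493121-99493370 (minus strand) for Krt23. Capitals mark a match to the C/EBP pattern TTNNGNAA or to TTNCNNAA, which is that pattern on the other strand.
Krt5: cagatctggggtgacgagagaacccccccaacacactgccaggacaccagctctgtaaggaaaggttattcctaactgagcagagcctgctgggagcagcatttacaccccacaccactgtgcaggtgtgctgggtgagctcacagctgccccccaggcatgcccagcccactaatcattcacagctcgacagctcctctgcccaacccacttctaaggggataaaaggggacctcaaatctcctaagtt
Krt7: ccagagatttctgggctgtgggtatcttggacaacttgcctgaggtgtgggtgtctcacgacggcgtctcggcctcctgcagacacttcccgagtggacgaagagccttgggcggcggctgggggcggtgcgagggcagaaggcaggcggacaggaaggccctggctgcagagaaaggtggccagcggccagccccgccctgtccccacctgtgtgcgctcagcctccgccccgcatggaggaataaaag
Krt23: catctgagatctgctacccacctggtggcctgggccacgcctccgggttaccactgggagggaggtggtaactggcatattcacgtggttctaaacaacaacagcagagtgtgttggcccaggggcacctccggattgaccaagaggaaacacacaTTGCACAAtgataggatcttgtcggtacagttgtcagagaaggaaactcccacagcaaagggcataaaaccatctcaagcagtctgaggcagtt
Over windows that run from 250 bases before to 50 after a start, the pattern was found in 2 of the 6 keratin windows. Krt23 had 1 match, TTGCACAA, from base -94 to base -87 relative to its start. The window of Krt14 had 2, but it belongs to a start inside the gene and is not shown. Krt5, Krt7, Krt8 and Krt18 had no match, which says only that these letters are not in this window. Of all 32851 windows of that length, 40.7% held the pattern. The AP-1 motif TGACTCA, or TGAGTCA on the other strand, was in 0 of the 6 windows and in 5.2% of all windows.

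The first question was how the keratins divide between the sorted populations. In WT glands 5 keratins were higher in CD29hi (Krt5, Krt14, Krt15, Krt17 and Krt23) and 4 were lower (Krt7, Krt8, Krt18 and Krt19) by limma at an adjusted p under 0.05. Over all 14598 genes tested, 8.19% were called in WT, 3.96% higher and 4.23% lower. In KO glands the same 5 keratins were higher and the same 4 lower, where 14.1% of all genes were called, 7.41% higher and 6.66% lower. Krt6a passed in neither. The arrays of the gates did not overlap for all 10 keratins in WT, 6 higher and 4 lower in CD29hi, where 52.1% of all genes did not overlap, 26.0% higher and 26.0% lower. In KO they did not overlap for 9 keratins, 5 higher and 4 lower, where 57.1% of all genes did not overlap, 30.4% higher and 26.8% lower. Because the genes were chosen as lineage markers, these counts describe how far the known markers separate the gates and are no independent sign of the sort.

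The basal pair of Krt5 and Krt14 was widely separated, and Krt5 had the largest difference of the 10 keratins in both genotypes. Krt5 read 12.56 and 12.68 in CD29hi and 7.13 and 6.75 in CD29lo of WT glands, and 12.63 and 12.39 in CD29hi and 7.66 and 7.40 in CD29lo of KO glands. The gates did not overlap in either genotype. Krt5 was 51.3-fold higher in CD29hi in WT (log2 fold change 5.68 ± 0.211 SE, adjusted p = 3.32e-05), the smallest p of all genes in that contrast, and 31.6-fold higher in KO (4.98 ± 0.211, adjusted p = 4.88e-05). Its partner Krt14 read 12.42 and 12.36 in CD29hi and 8.03 and 7.55 in CD29lo of WT glands, and 12.44 and 12.33 in CD29hi and 8.65 and 7.88 in CD29lo of KO glands. All 4 CD29hi arrays lay within a narrow band, and the CD29lo arrays spread over a wider one. Krt14 was 24.3-fold higher in CD29hi in WT (4.6 ± 0.271, adjusted p = 0.000134) and 17.4-fold in KO (4.12 ± 0.271, adjusted p = 0.000185).

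Krt15 and Krt17, type I keratins of basal cells of stratified epithelia and of skin appendages, followed the pair. Krt15 read 9.79 and 9.98 in CD29hi and 4.95 and 4.69 in CD29lo of WT glands, and 10.03 and 10.30 in CD29hi and 5.73 and 6.07 in CD29lo of KO glands. Its WT CD29lo arrays came closest to the background of 3.84 to 4.41 of any keratin here. It was 33.5-fold higher in CD29hi in WT (5.07 ± 0.300, adjusted p = 0.000134) and 19.2-fold in KO (4.27 ± 0.300, adjusted p = 0.000221). Krt17 read 12.12 and 12.15 in CD29hi and 8.15 and 8.13 in CD29lo of WT glands, and 12.01 and 12.05 in CD29hi and 8.24 and 7.51 in CD29lo of KO glands. Only its KO CD29lo arrays stood apart from each other by more than 0.1. It was 15.9-fold higher in CD29hi in WT (4.0 ± 0.240, adjusted p = 0.000138) and 17.8-fold in KO (4.16 ± 0.240, adjusted p = 0.000125). The 4 calls of Krt5, Krt14, Krt15 and Krt17 held in both genotypes under all 20 alternatives.

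Krt23 was the fifth keratin higher in CD29hi. It read 10.62 and 11.24 in CD29hi and 7.36 and 7.97 in CD29lo of WT glands, and 9.90 and 10.23 in CD29hi and 8.88 and 7.64 in CD29lo of KO glands. In WT it was 9.61-fold higher in CD29hi (3.27 ± 0.429, adjusted p = 0.00337), a call that held in all 20 alternatives. In KO the difference was 3.49-fold (1.81 ± 0.429, adjusted p = 0.0274) and rested on single arrays. It lost its call without KO CD29hi replicate 1 (log2 fold change 1.97, adjusted p = 0.099), without KO CD29hi replicate 2 (1.64, adjusted p = 0.131) and without KO CD29lo replicate 2 (1.19, adjusted p = 0.0912), against a range of adjusted p from 0.0101 to 0.131 over all alternatives. It was also lost without a variance trend (adjusted p = 0.0675), with only the arrays compared (0.0567) and with both CD29lo arrays numbered 2 left out (0.0612).

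Krt6a, a keratin of body cells of the growing end bud and of wounded epidermis, was not called between the gates. It read 8.95 and 7.99 in CD29hi and 7.98 and 6.71 in CD29lo of WT glands, and 8.21 and 8.12 in CD29hi and 7.15 and 8.61 in CD29lo of KO glands. Its replicates lay apart by an SD of 0.898 (WT) and 1.03 (KO) in CD29lo and of 0.679 in WT CD29hi, but close together in KO CD29hi (SD 0.0636). The difference between the gates was 1.13 ± 0.590 in WT (adjusted p = 0.315) and 0.29 ± 0.590 in KO (adjusted p = 0.804), and neither passed. In WT both CD29hi arrays lay above both CD29lo arrays, with 7.99 and 7.98 the closest, and in KO the gates overlapped. The 95% intervals, -0.226 to 2.48 in WT and -1.07 to 1.64 in KO, do not leave out a doubling in CD29hi. The near-identical gene Krt6b was below the background on all arrays.

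**Figure D1:**
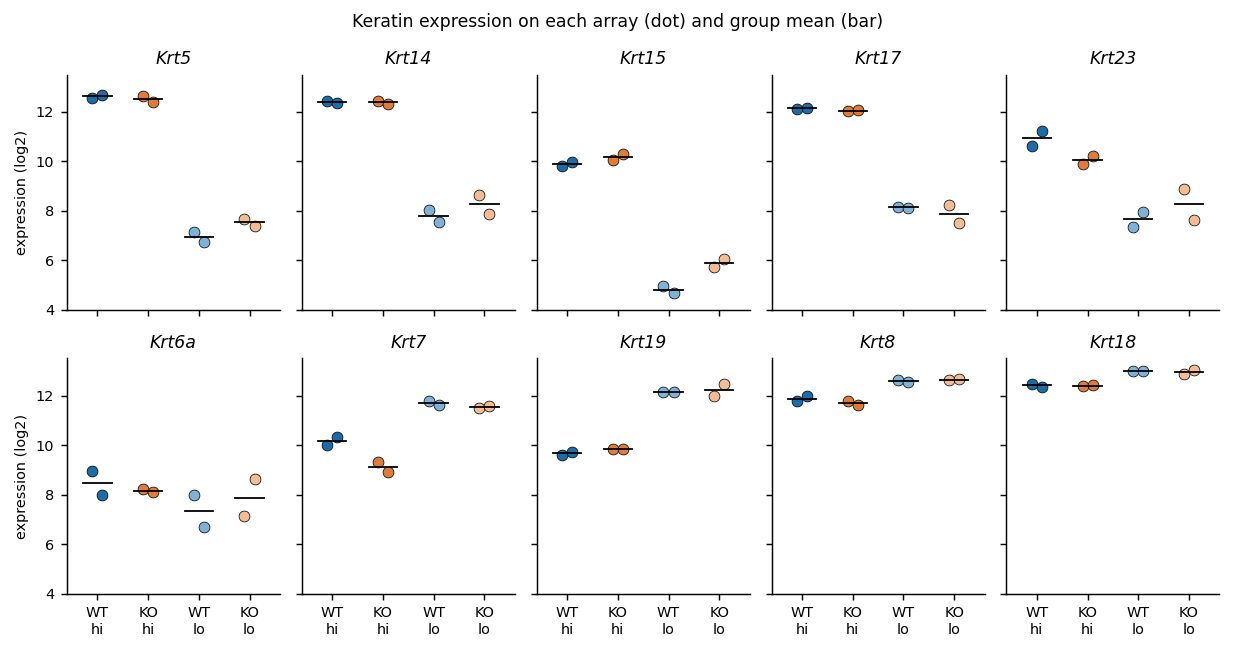
Log2 expression (vertical axis) of each keratin on each array (dots, 2 per group) with the group mean (bar), for WT and KO cells of the CD29hi (hi) and CD29lo (lo) gates. Krt5, Krt14, Krt15 and Krt17 are higher in WT CD29hi by 4.0 to 5.68, while Krt8 and Krt18 read 11.62 or more on every array.

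The luminal keratins were also detected in the CD29hi samples, which are bulk sorts and do not show which cells held them. Krt8 read 11.77 and 11.98 in CD29hi and 12.64 and 12.55 in CD29lo of WT glands, and 11.78 and 11.62 in CD29hi and 12.62 and 12.65 in CD29lo of KO glands. Its partner Krt18 read 12.48 and 12.34 in CD29hi and 13.01 on both CD29lo arrays of WT glands, and 12.37 and 12.42 in CD29hi and 12.88 and 13.02 in CD29lo of KO glands. For both genes every CD29lo array lay above every CD29hi array, by a small step. Krt8 was 1.65-fold lower in CD29hi in WT (-0.72 ± 0.103, adjusted p = 0.00484) and 1.91-fold lower in KO (-0.94 ± 0.103, adjusted p = 0.00116). Krt18 was 1.52-fold lower in WT (-0.60 ± 0.0815, adjusted p = 0.0039) and 1.47-fold lower in KO (-0.56 ± 0.0815, adjusted p = 0.00374). Without a variance trend Krt8 lost its call in WT (adjusted p = 0.104) and Krt18 lost it in WT (0.146) and KO (0.130). In this fit the estimates of the pair stayed within a factor of 2 between the gates. The 95% interval of Krt8 in KO, -1.17 to -0.698, reached beyond that.

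Krt7 and Krt19, keratins of simple and ductal epithelium, were the luminal members with the wider gap. Krt19 read 9.60 and 9.74 in CD29hi and 12.14 and 12.15 in CD29lo of WT glands, and 9.83 and 9.85 in CD29hi and 11.97 and 12.48 in CD29lo of KO glands. Krt7 read 9.99 and 10.31 in CD29hi and 11.77 and 11.60 in CD29lo of WT glands, and 9.30 and 8.90 in CD29hi and 11.48 and 11.58 in CD29lo of KO glands. For Krt19 the genotypes overlapped in CD29lo and lay next to each other without overlap in CD29hi, whereas for Krt7 the KO CD29hi arrays were the lowest of all 8. Krt19 was 5.56-fold lower in CD29hi in WT (-2.48 ± 0.176, adjusted p = 0.000306) and 5.22-fold lower in KO (-2.39 ± 0.176, adjusted p = 0.000236). Krt7 was 2.90-fold lower in WT (-1.54 ± 0.190, adjusted p = 0.00262) and 5.39-fold lower in KO (-2.43 ± 0.190, adjusted p = 0.000295). Both kept their calls in all 20 alternatives. In these sorted bulk samples, fewer cells of a type and less RNA per cell cannot be told apart.

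The second question was which keratins differ between knockout and wildtype cells of 1 gate. None of the 10 passed in CD29hi or in CD29lo by limma, where 0.0137% of the 14598 genes passed in each. At an unadjusted p under 0.05 there was 1 keratin in CD29hi (Krt7) and there were 2 in CD29lo (Krt15 and Krt5), against 7.84% and 6.68% of all genes. The median over the 10 keratins was -0.11 in CD29hi and 0.28 in CD29lo, where all genes had -0.02 and -0.06.

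In CD29hi the largest value was that of Krt7. Its KO arrays (9.30 and 8.90) both lay below its WT arrays (9.99 and 10.31), and the log2 fold change was -1.05 (95% interval -1.48 to -0.615, limma unadjusted p = 0.000483). Its adjusted p was 0.251, with 0.153 to 0.935 over the alternatives, so it passed in none of them. It ranked 27 by p among all genes. Luminal markers other than keratins summed to 11.79 and 11.64 in WT CD29hi and to 11.23 and 11.70 in KO CD29hi, on the log2 scale, and their means were 7.27 and 7.46 against 6.65 and 7.52. Of these arrays KO CD29hi replicate 1 had the lowest luminal signal and KO CD29hi replicate 2 the lowest Krt7 value. With 2 arrays per group such an order cannot show the part of luminal cells in the Krt7 values, which was not tested. The luminal transcription factor gene Elf5 read 9.14 and 8.17 in WT CD29hi and 3.99 and 6.94 in KO CD29hi (log2 fold change -3.19, limma adjusted p = 0.366). The other luminal keratins of the same cells gave 0.17 for Krt19 (interval -0.234 to 0.574), -0.18 for Krt8 (-0.412 to 0.0619) and -0.02 for Krt18 (-0.202 to 0.172).

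Krt23 had the next largest value in CD29hi, -0.87 (interval -1.85 to 0.118, adjusted p = 0.71), with both KO arrays below both WT arrays. The basal keratins gave -0.11 for Krt5 (interval -0.594 to 0.374), -0.01 for Krt14 (-0.626 to 0.616), 0.28 for Krt15 (-0.407 to 0.967) and -0.11 for Krt17 (-0.655 to 0.445). For Krt5, Krt14 and Krt17 these intervals leave out a doubling or a halving, and for Krt15 they reach nearly to a doubling. Krt6a gave -0.31 and did not pass. The groups did not overlap for 2 keratins higher in KO (Krt15 and Krt19) and 3 lower (Krt7, Krt23 and Krt17), where 39.5% of all genes did not overlap, 18.3% higher and 21.2% lower.

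In CD29lo the keratins with the smallest p were Krt15 and Krt5. Krt15 read 5.73 and 6.07 in KO against 4.95 and 4.69 in WT, a log2 fold change of 1.08 (95% interval 0.393 to 1.77, limma unadjusted p = 0.00654, adjusted p = 0.608, or 0.43 to 1.0 over the alternatives). Krt5 read 7.66 and 7.40 against 7.13 and 6.75, a log2 fold change of 0.59 (interval 0.106 to 1.07, unadjusted p = 0.0227, adjusted p = 0.661, or 0.397 to 1.0 over the alternatives). In both genes the KO arrays lay above the WT arrays, and neither passed. Krt14 gave 0.48 (-0.146 to 1.10) with overlapping arrays, and Krt17 gave -0.27. The 10 basal markers that are not keratins went both ways in CD29lo, 3 above 0 and 7 below 0 for KO minus WT. They ran from -1.695 for Tagln and -0.84 for Acta2 to 0.495 for Lgals7. Their means were 6.98 and 6.96 on the WT arrays and 6.82 and 6.57 on the KO arrays. Their summed signal was 10.7 and 10.94 against 10.74 and 10.99. Whether the share of basal cells had a part in the keratin values was not tested. Fibroblast markers summed to 13.6 and 15.17 in WT CD29lo and to 11.95 and 14.72 in KO CD29lo. Their part in the keratin values was not tested. Leaving out both arrays numbered 2 left Krt15 at 0.78 and Krt5 at 0.53. The CD29lo arrays then kept were those at 13.6 in WT and 11.95 in KO. The fibroblast signal thus still differed between the genotypes, and that setting cannot show its part.

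The luminal keratins of CD29lo cells gave small values between the genotypes: -0.16 for Krt7 (interval -0.59 to 0.28), 0.04 for Krt8, -0.06 for Krt18 and 0.08 for Krt19. Krt23 gave 0.60 (adjusted p = 0.839) and Krt6a 0.54, each with arrays that overlapped. The groups did not overlap for 2 keratins higher in KO (Krt15 and Krt5) and for 1 lower (Krt7), where 34.3% of all genes did not overlap, 14.7% higher and 19.6% lower.

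**Figure D2:**
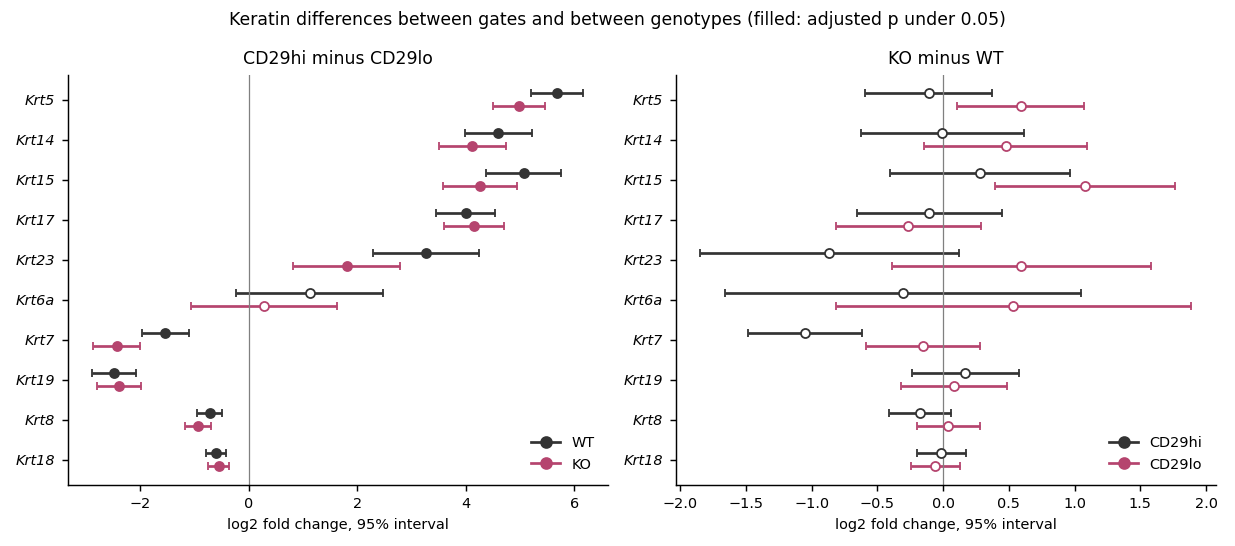
Log2 fold changes (horizontal axis) with their 95% intervals for each keratin, CD29hi minus CD29lo in WT and in KO on the left and KO minus WT in CD29hi and in CD29lo on the right. Filled points passed an adjusted p of 0.05, which 9 keratins did between the gates of each genotype and 0 did between genotypes.

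Averaged over both gates, 4 KO arrays were set against 4 WT arrays, and 0 of 10 keratins passed by limma, where 0.0685% of all genes passed, 0.00685% higher and 0.0617% lower in KO. Krt7 stood at -0.60 (interval -0.91 to -0.295, unadjusted p = 0.00184, adjusted p = 0.229) and Krt15 at 0.68 (0.194 to 1.17, unadjusted p = 0.0119, adjusted p = 0.365). These were the 2 keratins with an unadjusted p under 0.05, against 9.27% of all genes. The average uses the arrays of both within-gate comparisons and adds no samples.

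The interaction asked whether the gap between the gates was of another size in KO than in WT. It called 0 of 10 keratins and 0.0% of all genes by limma, in the fit reported here and in each of its 19 alternatives. At an unadjusted p under 0.05 there were 3 keratins, against 4.95% of all genes (722 genes). They were Krt7 (-0.90, unadjusted p = 0.00976), Krt23 (-1.46, 0.0417) and Krt5 (-0.70, 0.0461), each with adjusted p = 0.961. In these 3 genes the CD29hi value minus the CD29lo value was lower in KO. For the higher keratins Krt5 and Krt23 that is a narrower gap, and for Krt7, which is lower in CD29hi, a wider one. Krt15 had the same sign (-0.80, unadjusted p = 0.0946).

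Further probe sets were present for 4 of the genes. The second probe set of Krt14, which is not of the cross-hybridizing class of the leading one, read 11.79 and 11.66 in CD29hi and 6.66 and 6.02 in CD29lo of WT glands, and 11.78 and 11.64 in CD29hi and 7.33 and 6.98 in CD29lo of KO glands. It thus put the gap between the gates at 5.39 in WT and 4.56 in KO, wider than the leading probe set did, and KO above WT in CD29lo by 0.82 with no overlap. Its CD29lo arrays had the same order as those of Krt5. The dimmest probe set of Krt14 and the second of Krt17 were above the background only on the 4 CD29hi arrays. The 2 further probe sets of Krt8 put the gap at -0.67 and -0.65 in WT and -0.95 and -0.90 in KO, close to the leading one. Those of Krt6a gave 1.14 and 1.23 in WT and -0.02 and 0.35 in KO, and between genotypes in CD29hi they gave -0.89 and -0.98 where the leading one gave -0.31. A probe set annotated to both Krt17 and Krt14 was dim, at 2.02 to 4.25, and was not used.

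**Figure D3:**
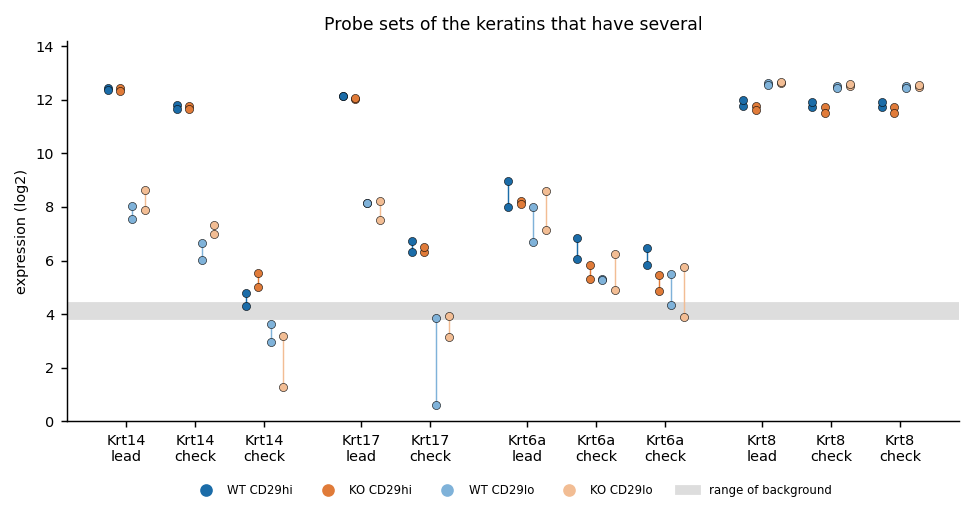
Log2 expression (vertical axis) on each array (dots) for every probe set of the keratins that have several, by group, with the range of the background over the arrays as a grey band. The further probe sets of Krt14 and Krt17 hold the same order of the gates as the leading ones, and those of Krt6a spread within groups.

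The genes closest to each keratin over the 8 arrays, by Pearson r of log2 values, followed the division between the gates. Over so few arrays in 2 clusters such a value describes the gate more than the gene. Krt5 and Krt14 had the same nearest genes, the fatty acid elongase gene Elovl4 (0.999 and 0.998) and the actin-associated Palld (0.998 with each). For Krt15 it was Lamb3 (0.998), a chain of laminin-332, and for Krt17 Aard (0.998) and the smooth muscle calponin gene Cnn1 (0.997). Krt8 was nearest to the transcription factor gene Ets2 (0.994), Krt18 to the glutathione reductase gene Gsr (0.992), Krt19 to the phosphatase gene Dusp4 (0.995) and Krt7 to Litaf (0.991). Krt23 had lower values, with Tril at 0.985, and Krt6a the lowest, with Zfp574 at 0.949.

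Other keratins were mostly dim. Of 38 further keratin genes with a probe set, 13 were never above the background and 25 were tested. Between the gates 2 were called higher in CD29hi in WT (Krt16 and Krt42) and 0 lower, and in KO the same 2 were higher and 2 lower (Krt78 and Krt80). Over all genes the shares were 3.96% higher and 4.23% lower in WT, and 7.41% and 6.66% in KO. Krt42 was higher by 1.99 in WT (adjusted p = 0.02) and by 2.87 in KO (adjusted p = 0.00318). The WT call was lost whichever of the 4 WT arrays was left out (adjusted p = 0.122 and 0.06 without CD29hi replicates 1 and 2, 0.0863 and 0.0885 without CD29lo replicates 1 and 2), and the KO call held without any 1 array but not with the mean of its probe sets (0.0795). Krt16, which pairs with Krt6 keratins, was higher by 1.93 in WT (adjusted p = 0.0321) and by 1.81 in KO (adjusted p = 0.0297). Without the same WT arrays in the same order its WT call was lost (0.073, 0.18, 0.0692 and 0.154), as it was without KO CD29hi replicate 1 (0.0542) or 2 (0.0546). Its KO call was lost without KO CD29hi replicate 1 (0.0937) or 2 (0.153), or KO CD29lo replicate 1 (0.0716) or 2 (0.095). Krt80, lower in CD29hi in KO (-2.26, adjusted p = 0.017), lost its call on leaving out KO CD29hi replicate 1 (0.114) or, from CD29lo, KO replicate 2 (0.0767). Krt78 (-1.91, adjusted p = 0.0475) lost its call without any array other than KO CD29lo replicate 1, for example without KO CD29hi replicate 1 (0.251), and stood at -1.16 without KO CD29lo replicate 2. The epidermal keratin Krt10 read 9.05 to 9.86 on all arrays and was called in no contrast. Of the 25, 0 were called between the genotypes by limma in either gate, and 2 in each gate had an unadjusted p under 0.05. That is near the shares of all genes, 7.84% in CD29hi and 6.68% in CD29lo.

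The genes that anchor keratin filaments were also divided between the gates. Among all genes 8.19% were called between the gates in WT and 14.1% in KO. Of 18 desmosome and hemidesmosome genes, 5 were called higher in CD29hi and 3 lower in WT, and 3 higher and 4 lower in KO. Their median was 0.33 in WT and 0.07 in KO, where all genes had 0.0 and 0.03. Of these calls 4 in WT and 3 in KO held in every alternative. Col17a1, the transmembrane collagen of hemidesmosomes, averaged 10.98 ± 0.0283 (SD, n = 2) in WT CD29hi and 5.63 ± 0.665 in WT CD29lo, a log2 fold change of 5.35 (adjusted p = 0.000461), and it gave 4.76 in KO (adjusted p = 0.000525). Plakophilins, which couple desmosomal cadherins to desmoplakin, went both ways. Pkp1 was higher in CD29hi by 1.66 in WT (adjusted p = 0.00498) and by 0.91 in KO (adjusted p = 0.0403). The KO call was lost on leaving out either KO CD29hi array (0.166 and 0.152 without replicates 1 and 2), replicate 2 of KO CD29lo (0.162) or either WT CD29hi array (0.0609 and 0.061). Pkp2 was lower, with 7.55 and 7.26 in WT CD29hi against 10.36 and 10.02 in WT CD29lo (-2.79, adjusted p = 0.000892) and -2.83 in KO. Evpl, which encodes the plakin envoplakin, was lower too, with log2 fold changes of -2.71 in WT and -2.61 in KO. Between the genotypes 0 of 18 passed by limma in either gate, and 3 in CD29hi and 4 in CD29lo had an unadjusted p under 0.05. The shares of all genes that did so were 7.84% and 6.68%. In CD29hi 10 of the 18 lay above 0 with a median of 0.09, where all genes had -0.02 and 48.2% lay above 0. In CD29lo 16 of the 18 lay above 0 with a median of 0.36, where all genes had -0.06 and 43.8% lay above 0.

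**Figure D4:**
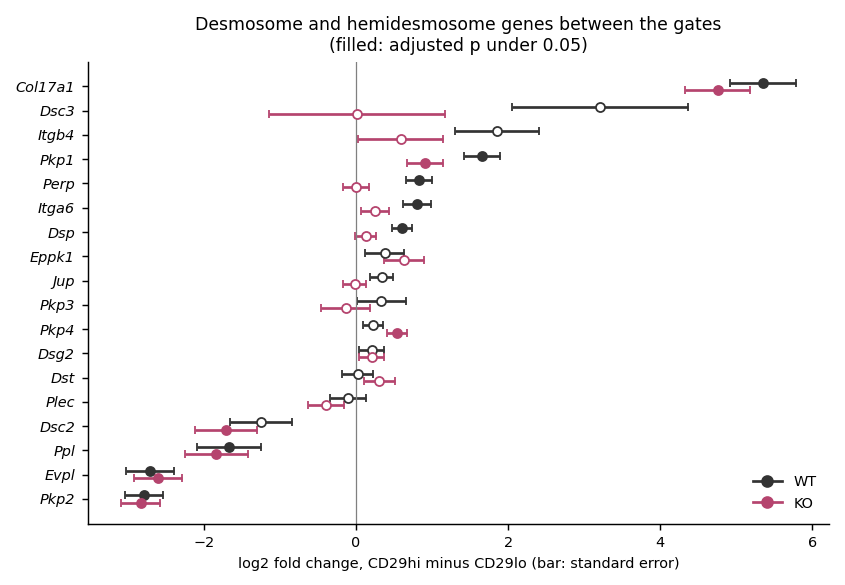
Log2 fold change of CD29hi minus CD29lo (horizontal axis) with its standard error for 18 desmosome and hemidesmosome genes, in WT and in KO, where filled points passed an adjusted p of 0.05. Col17a1 lies at 5.35 and 4.76 at the top, and Pkp2 and Evpl lie between -2.83 and -2.61 at the bottom.

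Among 8 other intermediate filament genes tested, 2 were called higher in CD29hi in each genotype and 0 lower. Over all genes 3.96% were called higher and 4.23% lower in WT, and 7.41% and 6.66% in KO. Nes, which encodes nestin, was higher by 3.01 in WT (adjusted p = 0.0033) and 3.26 in KO (adjusted p = 0.00167). Synm, which encodes synemin, was higher by 2.18 in WT (adjusted p = 0.011) and 3.86 in KO (adjusted p = 0.000684). Leaving out either WT CD29hi array (0.0512 and 0.0833 without replicates 1 and 2) ended the WT call of Synm, as did leaving out replicate 1 of WT CD29lo (0.0654). The mesenchymal filament gene Vim was not called, at -0.50 in WT and 0.53 in KO. Between the genotypes 0 of the 8 passed by limma in either gate, and 2 in CD29hi and 1 in CD29lo had an unadjusted p under 0.05. The shares of all genes were 7.84% and 6.68%.

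Between the gates 8.19% of all genes were called in WT and 14.1% in KO. Of 13 genes known as regulators or partners of keratins, 3 were higher and 2 lower in CD29hi in each genotype. The calls of 1 of them in WT and of 2 in KO held in every alternative. Trp63, which encodes the basal transcription factor p63, was higher by 5.90 in WT (adjusted p = 0.000932) and 5.76 in KO (adjusted p = 0.000673). Ets2 was lower in CD29hi by limma in both, with log2 fold changes of -0.62 in WT (adjusted p = 0.0105) and -0.94 in KO (adjusted p = 0.00121). Its WT call was lost on leaving out replicate 1 of WT CD29hi (0.0548) or of WT CD29lo (0.0778), without a variance trend (0.131) and when its probe sets were averaged (-0.07, adjusted p = 0.91). Between the genotypes 0 of the 13 passed by limma in either gate, and 2 in each gate had an unadjusted p under 0.05. Among all genes 7.84% did so in CD29hi and 6.68% in CD29lo. Klf4 had the smallest p of the 13 in both gates. It was higher in KO by 0.93 in CD29hi (limma unadjusted p = 0.000121, adjusted p = 0.147) and by 0.36 in CD29lo (unadjusted p = 0.0299, adjusted p = 0.683).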

How the data were processed

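RNA of 8 sorted mammary samples was measured on Affymetrix mouse arrays. Per the labels' protocols, RNA was isolated with the Arcturus PicoPure kit, amplified with a NuGEN FFPE kit and labelled as biotinylated cRNA. The authors deposited 1 log2 value per probe set and array, floored at 0. The normalization is not given in the sources used here, and none was added. Array medians were 5.45 to 5.67. The platform annotation of 2016 names 1 gene for 34958 of 45101 probe sets, several for 932 and none for 9211, and 34754 matched a RefSeq gene. The number of arrays limits the precision.

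The background of an array was the 95th percentile of its 27 bacterial control probe sets. Genes whose leading probe set had a mean under the 25th percentile of all probe sets (3.51) were not tested. limma 3.58.1 in R 4.3.3 fitted 4 group means with eBayes and a variance trend (4 residual and 4.31 prior degrees of freedom). P values of 6 two-sided contrasts were adjusted by Benjamini-Hochberg over 14598 genes, with a threshold of 0.05. The fit was tested on simulated data. Figures used matplotlib 3.10.9 in Python 3.11.15.

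The keratins, lists and background rule were chosen with earlier results of these data known. Named genes are Cebpb, all 10 keratins, up to 4 genes of each list with the smallest p per contrast and the 2 nearest genes by Pearson r. Krt6b was named outside this rule after its values were seen. The lists were other keratins, other intermediate filaments, filament anchors, keratin regulators and markers of basal, luminal and pan-epithelial cells, fibroblasts, blood, endothelium, adipocytes, Schwann and muscle cells and epidermis. The alternatives were no filter, quantile normalization, a filter raised to the 50th percentile, every probe set, the mean of probe sets, no trend, array weights, the replicate block, the pool as a random block, values raised to the background, only the arrays compared, leaving out each array, and leaving out both CD29lo arrays numbered 2, which was chosen after seeing the data.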

Additional observations from a re-analysis of the deposited data

How the results depend on the processing

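Keratin counts between genotypes and in the interaction were 0 in every alternative. Between the gates, without a variance trend 2 keratins instead of 4 were called lower in CD29hi in WT, and in KO 4 instead of 5 were higher and 3 instead of 4 lower. In KO 4 instead of 5 were also higher in the 5 further settings in which Krt23 lost its call, and the other counts were the same. Among the fits of single keratins under an alternative, 198 of 200 kept direction and side of the threshold between the gates in WT, 192 of 200 in KO, 193 and 187 of 200 between genotypes in CD29hi and CD29lo, 179 of 190 in the average and 181 of 190 in the interaction. Every value that turned its sign was one that had not passed. With the mean of probe sets these were Krt14 in CD29hi (0.24), Krt17 in CD29lo (0.52) and in the average (0.21), Krt6a in the average (-0.24), and in the interaction Krt14 (0.17) and Krt17 (-0.62). With quantile normalization they were Krt18 in CD29lo (0.0053) and in the interaction (-0.031). With both CD29lo arrays numbered 2 left out they were in CD29lo Krt17 (0.09), Krt6a (-0.83), Krt8 (-0.02) and Krt19 (-0.17), in the average Krt6a (-0.57) and Krt23 (0.33), and in the interaction Krt17 (-0.20) and Krt6a (0.53). Leaving out 1 array at a time gave KO minus WT ranges in CD29hi of -0.23 to 0.01 for Krt5, -0.06 to 0.05 for Krt14, -0.79 to 0.18 for Krt6a and -0.085 to 0.055 for Krt18. In CD29lo the ranges were -0.63 to 0.1 for Krt17, -0.20 to 1.27 for Krt6a, -0.005 to 0.085 for Krt8, -0.13 to 0.01 for Krt18, -0.18 to 0.34 for Krt19 and -0.025 to 1.22 for Krt23. In the average they were -0.25 to 0.48 for Krt6a, -0.0025 to 0.25 for Krt19 and -0.45 to 0.18 for Krt23, in the interaction -0.21 to 0.53 for Krt17, -0.025 to 0.12 for Krt18 and -0.17 to 0.35 for Krt19, and between the gates in KO -0.45 to 1.02 for Krt6a. The cause was not tested.

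The replicate block, a fit with the replicate number as a term, left every keratin count as it was: 5 higher and 4 lower between the gates in each genotype and 0 between genotypes. Deviations of same-numbered arrays correlated between groups from -0.02 to 0.28, and the labels do not tie the numbers to the paired sets, so the numbers are not shown to pair the samples. Of all genes, 1196 were called between the gates in WT (512 to 1383 with 1 array left out, 785 without a trend and 2013 with every probe set) and 2053 in KO (722 to 1913, 1417 and 3782). Between genotypes the counts of genes were 2 in CD29hi (0 to 4), 2 in CD29lo (0 to 10) and 10 in the average. In the average there were 16 under the replicate block and 2 with a filter raised to the 50th percentile.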

Other observations

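Epidermal markers were measured because skin shares basal keratins with the mammary gland. Over all genes 4.23% were called lower in CD29hi in WT and 6.66% in KO. Of the 7 epidermal markers tested, 1 was called lower in CD29hi in WT and 2 in KO. The 2 were Sbsn (log2 fold change -2.14, limma adjusted p = 0.000843) and Dmkn (-3.20, limma adjusted p = 0.00311), both keratinocyte-secreted proteins. The KO calls held in every alternative. In WT Sbsn stood at -1.34 (limma adjusted p = 0.00855), and leaving out WT CD29hi replicate 2 (0.0603) or replicate 1 of WT CD29lo (0.0607) ended its call. Dmkn stood at -1.32 in WT and was not called (limma adjusted p = 0.121). Its means were 8.45 in WT and 6.15 in KO in CD29hi, and 9.77 in WT and 9.345 in KO in CD29lo. In both genotypes both genes were higher in CD29lo, but not all epidermal markers were. Of the 7, 2 lay above 0 and 5 below 0 for CD29hi minus CD29lo in each genotype. Krtdap stood at 1.345 in WT (limma adjusted p = 0.174) and at -0.705 in KO (limma adjusted p = 0.421). Whether skin cells had a part in the keratin values was not tested. Of the blood, endothelial and adipocyte markers tested (4, 5 and 3 genes), 0 were called by limma in any of the 6 contrasts. No more than 1 gene of a list had an unadjusted p under 0.05 in any of them. That does not show that such cells were absent. The adipocyte marker Fabp4 read 10.94 to 12.78 over the arrays and Adipoq 2.58 to 4.51, and the endothelial marker Cdh5 read 6.24 to 9.38. Of 2 genes tested from the list of Schwann and muscle markers 1 was called, Sox10 between the gates in WT (1.07, limma adjusted p = 0.0483). Sox10 read 8.93 to 10.34 over the 8 arrays, and which cells carried it was not tested. Its call was lost on leaving out any array but those of KO CD29lo. Between the genotypes 0 markers of any of these lists passed by limma, and 1 epidermal and 1 adipocyte marker in CD29hi had an unadjusted p under 0.05. The share of all genes in CD29hi was 7.84%. Of the pan-epithelial genes Epcam and Cdh1, 1 was called lower in CD29hi in each genotype.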
